A study of Phormium tenax with 2 samples.

Results

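The unigenes described here are 10 of the 75265 unigenes assembled from leaves of Phormium tenax (New Zealand flax). They are those that the study lists by identifier for the enzymes between UDP-glucose and pectin. One is UDPglucose 6-dehydrogenase, one is UDP-glucuronate 4-epimerase, and the other 8 are alpha-1,4-galacturonosyltransferase (GalAT) or pectinesterase. The study's list gives these 8 under both enzyme names together without saying which unigene belongs to which, so they are called GalAT or pectinesterase unigenes here. The study chose all 10 for their fold change and FDR between the same libraries, so their differences between the libraries are a description and were given no test.

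Pectin is a polysaccharide of the plant cell wall rich in galacturonic acid, and it forms a hydrated gel between the cellulose microfibrils and most of the middle lamella between cells. UDP-glucose dehydrogenase oxidises UDP-glucose to UDP-glucuronic acid, the parent of several wall sugars, and UDP-glucuronate epimerase turns that into UDP-galacturonic acid, the activated sugar from which pectin is built. GalAT adds the galacturonic acid to the growing homogalacturonan chain in the Golgi apparatus, where the chain is also methyl-esterified. Pectinesterase removes the methyl groups in the wall, which lets calcium cross-link the chains or opens them to degrading enzymes. In plants both GalAT and pectinesterase are usually encoded by many genes.

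The data are 2 libraries of leaf blade RNA from plants aged 1 year, each pooled in equal quantity from 3 plants. In the drought library (T01) watering had been stopped until the soil held 25% of its saturated water content, and in the control library (T02) the soil was kept at 70%. Soil water was then checked regularly and the deficit replenished, and both groups of plants were harvested 10 days later. The plants came from potted seedlings, and no genotype or cultivar was named. The estimated counts, rounded to whole reads, summed to 17744093 for drought and 18540664 for control. Since RNA was pooled before sequencing, the variation from plant to plant is unknown, and every interval below covers counting error only. The tables hold no gene names, so the leaf identity of the libraries was not checked against marker genes. In pooled whole leaf, fewer cells of a type and less RNA per cell cannot be told apart.

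Both unigenes of the UDP-sugar enzymes were higher in the drought library, and they were the most abundant of the 10 there. UDPglucose 6-dehydrogenase (c63742.graph_c1) received 7194 drought and 1454 control reads. Its level, given as TPM (reads scaled for unigene length and then to a common total per library), was 269 in drought and 53.4 in control. This made it the unigene with rank 369 of all 75265 by TPM under drought and rank 3151 in control. Its log2FC, the log2 ratio of drought over control reads after scaling between the libraries by edgeR's TMM method and adding 1 read to each, was 2.08, or 4.23-fold. Its counting interval, an exact 95% Clopper-Pearson interval for the fraction of reads from drought expressed as a log2 ratio, ran from 2.001 to 2.165. This is the narrowest interval of the 10 unigenes. With upper-quartile factors the log2FC was 1.87, below the study's threshold of 2.

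UDP-glucuronate 4-epimerase (c55843.graph_c0), the enzyme that makes the pectin precursor itself, received 5637 drought and 151 control reads. Its level was 201 TPM in drought and 5.48 TPM in control, and its rank by TPM was 603 in drought and 16043 in control. The log2FC was 4.99 (interval 4.77 to 5.24), or 31.8-fold. The interval lies above that of the dehydrogenase and does not overlap it. On the TPM scale the dehydrogenase was 9.75 times as abundant as the epimerase in control and 1.34 times as abundant in drought.

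Trinity groups related sequences into components, and the dehydrogenase unigene shares its component with c63742.graph_c0 and c63742.graph_c2. The latter, for which the study's list gives no enzyme, received 1821 drought and 716 control reads (53.4 and 20.01 TPM). Its log2FC of 1.12 (interval 0.997 to 1.25) lies below that of c63742.graph_c1, and the counting intervals do not overlap. The unigene c63742.graph_c0 had 1 drought read and 5 control reads. Of the summed TPM of the component, c63742.graph_c1 held 83.4% in drought and 71.7% in control. The authors' counting could have shared reads between unigenes of a component, and the summed TPM of the whole component was 13.6 times that of the epimerase in control and 1.61 times in drought.

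**Figure D1:**
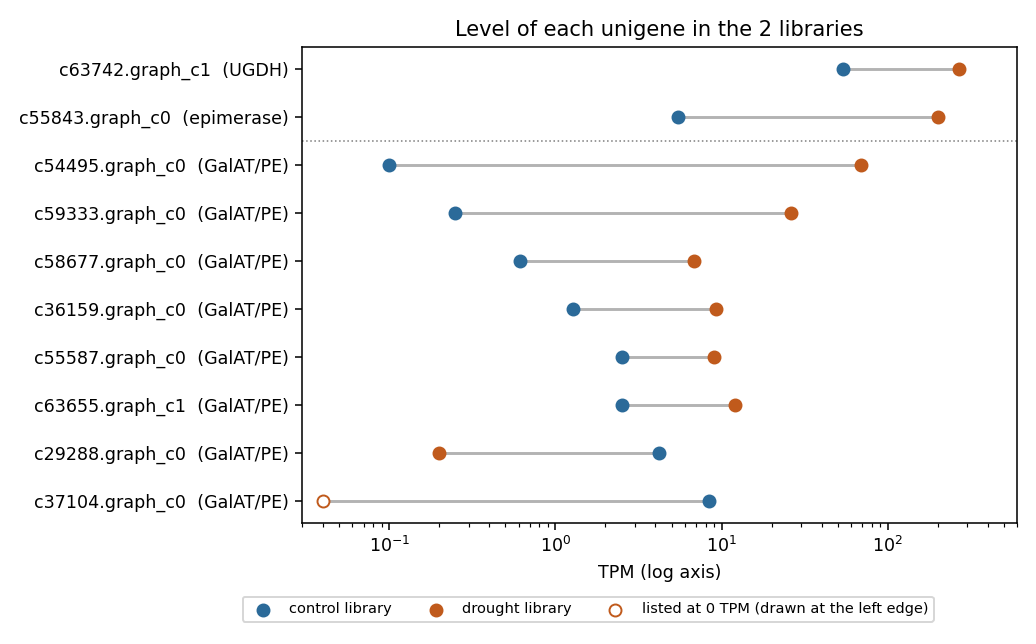
Level of each of the 10 unigenes in the control library (blue) and the drought library (orange) in TPM on a log axis, with UGDH for UDPglucose 6-dehydrogenase, epimerase for UDP-glucuronate 4-epimerase and GalAT/PE for GalAT or pectinesterase. The UDP-sugar unigenes reach 269 and 201 TPM in drought, 6 of the GalAT or pectinesterase unigenes are higher in drought, and c29288.graph_c0 and c37104.graph_c0 are higher in control (the open circle stands for 0 TPM).

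Of the 8 GalAT or pectinesterase unigenes, 6 had more reads under drought and 2 had fewer, in each case by a log2FC of 2 or more in size. All 10 unigenes passed the filter of at least 10 reads in both libraries together. Among all 39163 unigenes that passed it, 17.7% were higher in drought by this fold and 8.5% were lower, or 26.2% in either direction. Because the 10 were picked for this fold, nothing is read from their count beside this background. The median log2FC of the 8 was 2.34, also with c37104.graph_c0, which had 0 drought reads, at its bound, and that of all unigenes that passed the filter was 0.14.

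The unigene c54495.graph_c0 had the highest log2FC of the 10. It received 1366 drought reads and only 2 control reads, which gave 68.8 and 0.10 TPM. The ratio of scaled reads was 585 (interval 162 to 4834), and its width comes from the 2 control reads. With the added read the log2FC was 8.64, and 35 of the 39163 unigenes had a higher one. In the control library it was the least abundant of the 8 by TPM, and in the drought library it was the most abundant.

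The unigene c59333.graph_c0 received 603 drought and 6 control reads (26.01 and 0.25 TPM). The log2FC was 6.22 (interval 5.30 to 7.88), and 194 unigenes had a higher one. The interval overlaps that of c54495.graph_c0, which runs from 7.34 to 12.2. By level c54495.graph_c0 was the higher of them in drought. Of the drought reads, not scaled for length, it held 50.2% of those of the 8 unigenes (exact interval 48.3% to 52.1%) and c59333.graph_c0 held 22.2% (20.6% to 23.8%).

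The unigene c58677.graph_c0 followed by fold, with 177 drought and 12 control reads (6.85 and 0.61 TPM) and a log2FC of 3.56 (interval 2.82 to 4.64). The interval lies below those of c54495.graph_c0 and c59333.graph_c0. For c36159.graph_c0 there were 74 drought and 10 control reads (9.24 and 1.27 TPM), with a log2FC of 2.56. Its interval of 1.70 to 3.78 overlaps that of c58677.graph_c0 and includes the threshold of 2.

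The remaining unigenes that were higher in drought lay just inside the threshold. The unigene c55587.graph_c0 was assigned 147 drought and 28 control reads (8.95 and 2.53 TPM), with a log2FC of 2.13 (interval 1.58 to 2.81). The unigene c63655.graph_c1 was assigned 352 and 71 reads (12.1 and 2.51 TPM), and its log2FC was 2.07 (1.71 to 2.47). The counting intervals of both include 2, and with upper-quartile factors the values were 1.92 and 1.86. No listed unigene lies just outside the threshold, which the study's choice at the same log2FC favours. An unlisted unigene of the same component as the last one, c63655.graph_c0 (311 bp), received 28 drought and 7 control reads and had a log2FC of 1.65 (interval 0.55 to 3.22).

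Among the 15 pairs that these 6 unigenes form, the counting intervals of 5 overlapped and those of 10 did not. The intervals cover counting error only and narrow with more reads. The share over pairs of all unigenes was not computed, so nothing is read from this count. The levels of the 6 unigenes spanned 0.10 to 2.53 TPM in the control library and 6.85 to 68.8 TPM in the drought library. These ranges do not overlap, which the choice of the unigenes favours. The unigenes with the lowest control levels, c54495.graph_c0 and c59333.graph_c0, had the highest drought levels.

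**Figure D2:**
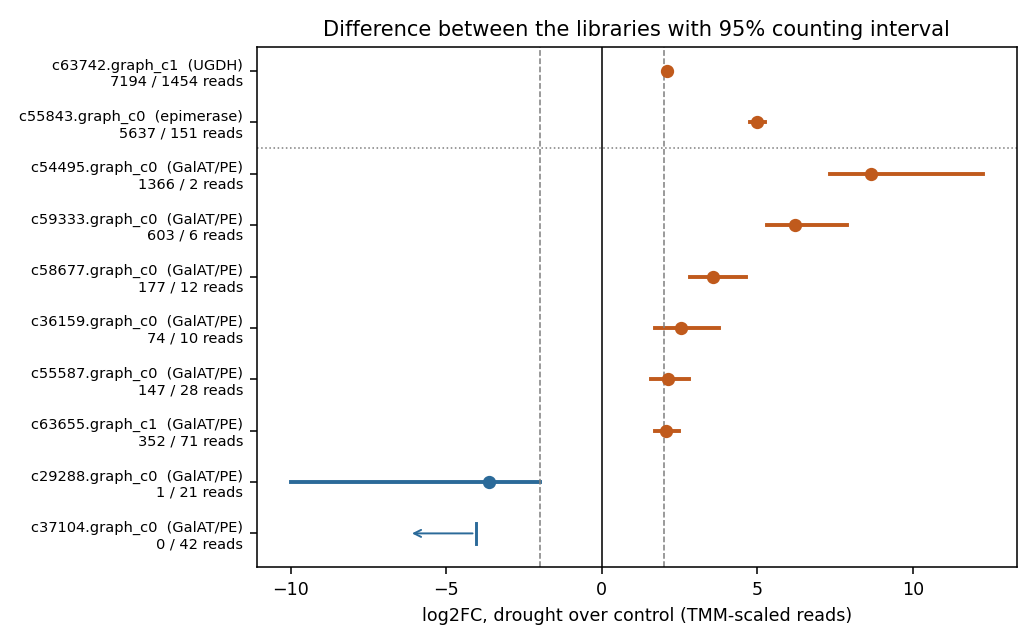
log2FC of drought over control for the 10 unigenes (dots, TMM-scaled reads with 1 read added) with the exact 95% counting interval without the added read (bars), and the drought and control reads beside each name. The dashed lines mark a log2FC of 2 in either direction, and the arrow for c37104.graph_c0 starts at the value given by 3 reads in place of 0 in drought. Intervals of 6 unigenes lie wholly beyond the threshold and those of 4 include it. The intervals leave out the choice of scaling. That of c63742.graph_c1 begins at 2.001, and its log2FC was 1.87 with upper-quartile factors.

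The 2 GalAT or pectinesterase unigenes that were lower in drought were nearly without reads there. The unigene c37104.graph_c0 (384 bp) received 42 control reads and 0 drought reads. In drought it was listed at 0 TPM and in control at 8.45 TPM. With 3 reads in place of 0, a set floor, it was 16.3-fold lower in drought. Its exact counting interval begins at 12.7-fold lower, so 16.3 is not a minimum. The unigene c29288.graph_c0 (385 bp) had 21 control reads and 1 drought read, or 4.21 and 0.20 TPM. It was 24.5-fold lower by scaled reads with an interval of 3.94 to 1014, and its log2FC with the added read was -3.62. The lower end of that interval is just short of the 4-fold that a log2FC of 2 stands for.

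In the control library these were the most abundant of the 8 by TPM, ahead of c55587.graph_c0 (2.53 TPM) and c63655.graph_c1 (2.51 TPM). They were also the shortest of the 10 unigenes, whose other members measured 563 to 1851 bp in the drought table. Of all unigenes under 500 bp that passed the reads filter, 11.2% were lower and 26.9% were higher in drought by the same fold. Of those of 500 bp or more, which include the 8 unigenes higher in drought, 6.19% were lower and 9.94% were higher. These length classes were set after the values were seen, and length was not separated from the number of reads. Among the 7715 unigenes with a total of 20 to 49 reads, 10.1% were lower and 20.2% were higher in drought by this fold. Of these 7715, 3.88% had at most 1 read in drought and 10.8% had at most 1 read in control.

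**Figure D3:**
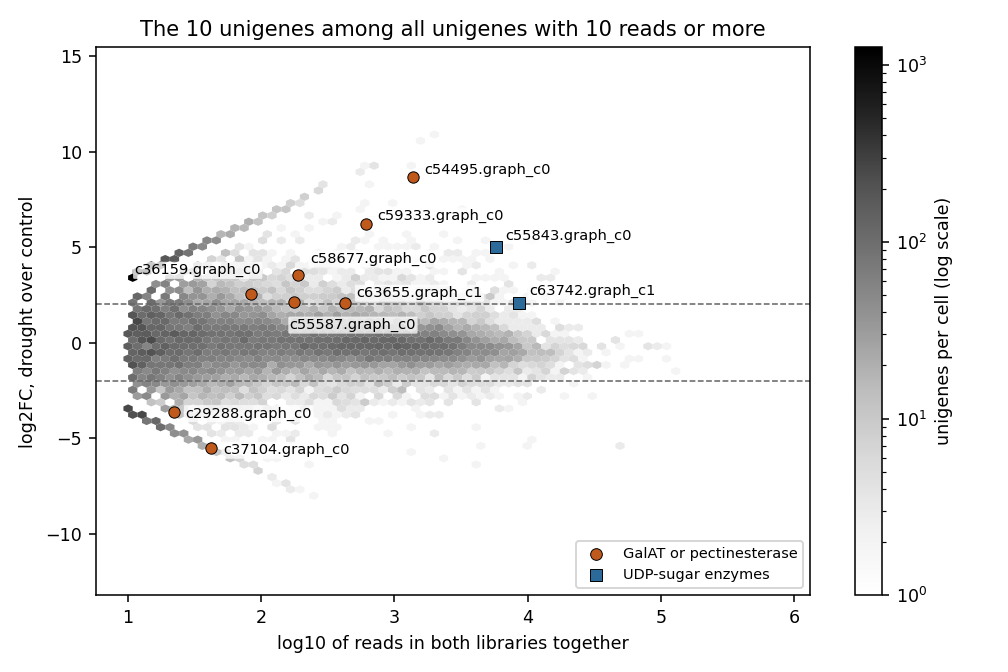
Each of the 39163 unigenes with at least 10 reads in both libraries together, by log10 of these summed reads (x axis) and its log2FC of drought over control (y axis). Grey cells are shaded by the number of unigenes. The GalAT or pectinesterase unigenes (orange circles) and the UDP-sugar unigenes (blue squares) are named, with c54495.graph_c0 near the upper edge at a log2FC of 8.64 and c37104.graph_c0 on the lower edge, which unigenes without drought reads form.

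The summed level of the 8 GalAT or pectinesterase unigenes was 132 TPM in the drought library and 19.9 TPM in the control library, a ratio of 6.63. This ratio is of TPM, without TMM scaling, and is not on the scale of the log2FC values. The reads of the 8 summed to 2720 in drought and 192 in control, a larger ratio. By TPM, the unigenes that held most of the sum were different ones. By reads, not scaled for length, the 6 unigenes higher in drought held most in both libraries. They had 129 of the 192 control reads and 2719 of the 2720 drought reads. The 8 were chosen for a large difference between these libraries, which favours such a change of shares. Unigenes of these enzymes that the study did not list are not in the sum, so the shares do not describe the whole families. In control, c37104.graph_c0 held 42.4% of the summed TPM and c29288.graph_c0 held 21.1%, together 63.5%, while in drought both held 0.15%. In drought, c54495.graph_c0 held 52.1% and c59333.graph_c0 held 19.7%, against 0.50% and 1.25% in control. Without c54495.graph_c0 the summed level of the other 7 was 63.3 TPM in drought and 19.8 TPM in control, a ratio of 3.19. The control shares rest on 192 reads in all. Since both leading control unigenes are short, c37104.graph_c0 held 21.9% of the control reads of the 8 (exact interval 16.2% to 28.4%), and c63655.graph_c1 held the most, with 37.0% (30.1% to 44.2%).

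**Figure D4:**
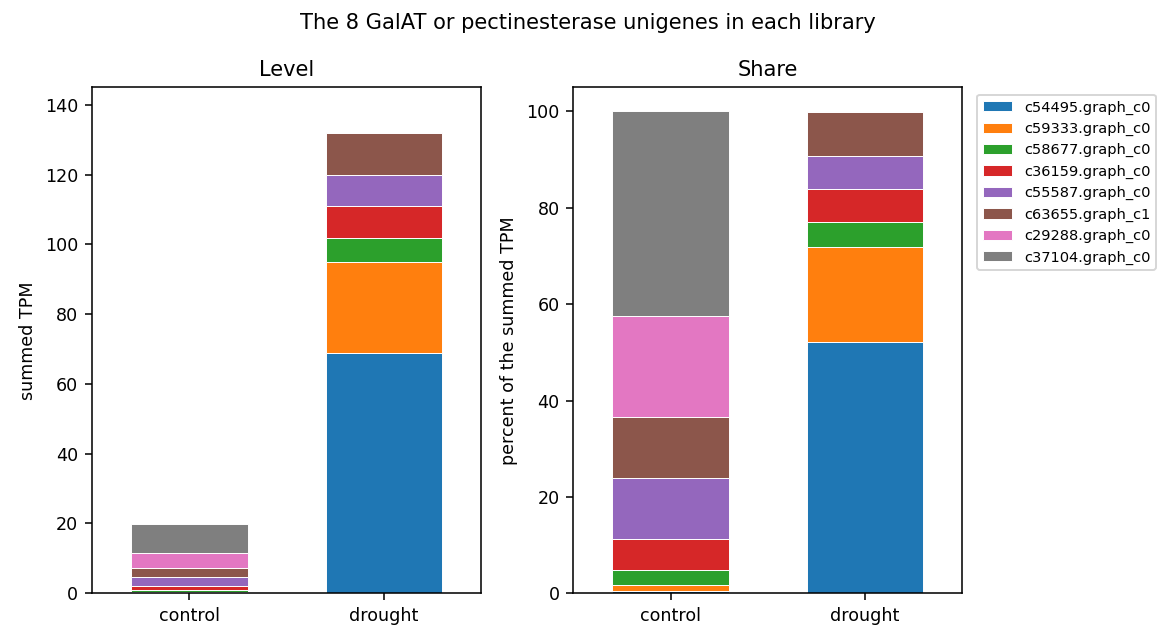
Summed TPM of the 8 GalAT or pectinesterase unigenes in each library (left) and the percent of that sum held by each unigene (right), with 1 colour per unigene and 1 library per bar. The sum is 19.9 TPM in control and 132 TPM in drought, and c54495.graph_c0 goes from 0.50% of it in control to 52.1% in drought.

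Along the pathway, the UDP-sugar unigenes together reached 471 TPM in drought and 58.9 TPM in control, a ratio of 7.99. They held 78.1% of the summed TPM of the 10 unigenes in drought and 74.7% in control. All 10 together reached 603 TPM in drought and 78.8 TPM in control.

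The 10 unigenes had a median length of 1468 bp against 540 bp for all unigenes that passed the reads filter, and a median of 306 reads against 56. A unigene had to match a known enzyme to be listed, and whether that favoured long unigenes was not tested. Of the 10, 7 are made of several transcripts, with 13 in c58677.graph_c0, 12 in c59333.graph_c0, 9 in c54495.graph_c0 and 8 in c63742.graph_c1, while 49.2% of all unigenes that passed the filter are. For a unigene with several transcripts the deposited length can differ between the tables. It differed for 6 of these 7, beside 91.7% of the 18405 such unigenes with reads in both libraries.

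In 2 of the unigenes the length differed by more than 20%, as it did in 13.0% of those 18405. The length of c55587.graph_c0 was 1074 bp in the drought table and 760 bp in the control table, and that of c58677.graph_c0 was 1646 bp and 1300 bp. In both, the longer value is the drought one. A TPM value divides by this length, so for these unigenes the ratio of TPM lies below the ratio of reads. For c55587.graph_c0 the TPM ratio was 3.54 and the ratio of scaled reads with the added read was 4.38, and from TPM values its log2FC was 1.78, below the threshold. For c58677.graph_c0 the ratios were 11.2 and 11.8. Before any scaling between the libraries, the log2 ratio of reads exceeded that of TPM by 0.57 in c55587.graph_c0 and by 0.39 in c58677.graph_c0. In the other 7 unigenes with reads in both libraries, this difference lay between -0.05 and 0.05.

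Each change of scaling moved all 10 values in the same direction. In place of TMM, scaling by total reads moved the log2 ratios without the added read by 0.29. Upper-quartile factors moved them by -0.21 and DESeq2's median-of-ratios factors by -0.03. With the added read, unigenes with few reads in a library moved less. That of c37104.graph_c0 went from -5.54 to -5.40 with total reads. Each unigene kept its direction under the 7 other settings of scaling, added reads or unit that were tried. The shifts between scalings are smaller than any of the 10 values, so this outcome was fixed for them. Upper-quartile factors left 7 of the 10 past the threshold, without c63742.graph_c1, c55587.graph_c0 and c63655.graph_c1. With these factors 26.2% of all unigenes that passed the reads filter were past it. The lowest log2FC of c54495.graph_c0 under these settings was 7.47 and that of the epimerase unigene c55843.graph_c0 was 4.78.

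**Figure D5:**
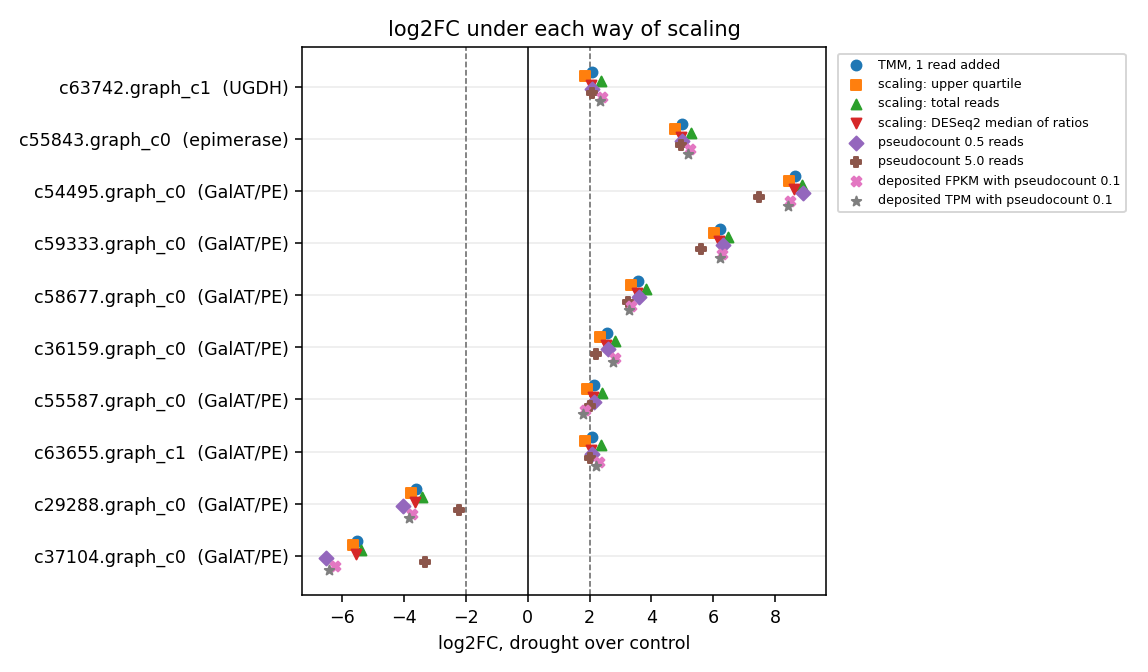
log2FC of drought over control (x axis) for the 10 unigenes (y axis) under TMM scaling with 1 read added and under 7 other settings, each with its own marker. The dashed lines mark a log2FC of 2 in either direction. The markers of c63742.graph_c1, c55587.graph_c0 and c63655.graph_c1 straddle the line, and adding 5 reads draws the unigenes with few reads in a library towards 0.

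The study lists 8 further unigenes under the same KEGG pathway of starch and sucrose metabolism, also chosen from these libraries. Of these, 3 were higher in drought by the same fold and 5 were lower. The 3 are those of trehalose 6-phosphate phosphatase, which completes the synthesis of the sugar trehalose, and of starch phosphorylase, which releases glucose phosphate from starch. The trehalose phosphatase unigene c64847.graph_c0 received 6310 drought and 428 control reads (log2FC 3.66), and c54392.graph_c1 received 42 and 0. The 5 are sacA unigenes, for invertase, which splits sucrose.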

How the data were processed

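The authors filtered the reads of both libraries, assembled them together with Trinity, and gave the values of each library in a table of its own. The expected counts deposited by the authors are estimated reads per unigene without normalization, and they were rounded to whole reads here. The deposited TPM and FPKM values were scaled by the authors for unigene length and library size. The submitters' processing notes name Bowtie 0.12.2, Cufflinks and the mouse build mm8. A mouse build cannot apply to a plant assembly, so the program that made the counts is taken as not given in the sources used here. Counting that shares reads between similar unigenes can shift values within a gene family.

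Reads were scaled with edgeR 4.0.16 (TMM) in R 4.3.3, and upper-quartile factors, total reads and DESeq2 1.42.0 factors were alternatives. log2FC adds 1 read to each scaled count. A unigene counts as past the fold at a log2FC of 2 in either direction (the study's threshold), among unigenes with at least 10 reads together. Counting intervals are exact 95% Clopper-Pearson intervals and take PCR copies as separate reads. A fold against 0 reads is given at a set floor, with 3 reads in place of 0, which is not the end of its counting interval. No test was run, because each condition has 1 library and the unigenes were chosen from this contrast. EBSeq, which the study used, was not run. The scaling and fold steps were run on simulated counts with known folds. There few unigenes changed, equally often in each direction and with many expected reads. The simulation therefore does not cover the many, mostly upward differences here or the unigenes with very few reads in a library. All 10 unigenes of the list are named, together with other unigenes of their Trinity components and, from the pathway list, those of trehalose phosphatase. c63742.graph_c0, with fewer than 10 reads, and the trehalose phosphatase unigenes were named outside the rule. The unigenes and lists were chosen with earlier results of these data known. No unigene sequence was used here. Python 3.11.15, SciPy 1.17.1, pandas 2.3.3 and matplotlib 3.10.9 were used.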

Additional observations from a re-analysis of the deposited data

How the results depend on the processing

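The number of the 10 unigenes past the fold was 10 and stayed between 7 and 10 under other scalings, added reads and units and with unigenes of at least 300 bp. It was 9 with 5 reads added and with the FPKM or TPM values, each time without c55587.graph_c0. It was 6 with at least 10 reads required in each library, which drops the 4 unigenes with the fewest reads in a library, and 6 at a log2FC threshold of 3. The number over all unigenes was 10279, or 26.2% of 39163. It was 4664 (11.9%) with 5 reads added. With at least 1 read together it was 32158 of 71410 (45%), and with at least 10 reads in each library 1871 of 22370 (8.36%). It was 18647 (47.6%) at a log2FC threshold of 1 and 6935 (17.7%) at a threshold of 3. The filter of at least 10 reads in each library left 55.0% of these calls higher in drought, beside 67.6%. Of the 70 log2FC values of the 10 unigenes under alternatives, 63 lay within the counting interval, 7 lay outside it and none had the opposite sign. With reads in place of TPM, the control share of c37104.graph_c0 among the 8 GalAT or pectinesterase unigenes was 21.9% in place of 42.4%. No paired analysis was possible because each condition has 1 library. Depth limits c54495.graph_c0 (2 control reads), c59333.graph_c0 (6 control reads), c29288.graph_c0 (1 drought read) and c37104.graph_c0 (0 drought reads) most, and differences between plants could not be measured.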
